A study of Rattus norvegicus with 14 samples.

Results

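Sertoli cell identity genes, a set of 10 genes used to recognise the supporting cells of the testis, were followed in fetal rat testes after the mothers had received DCHP (dicyclohexyl phthalate), one of the phthalate esters used to soften plastics. The members were Amh, Sox9, Sox8, Dmrt1, Wt1, Clu, Aard, Cldn11, Fshr and Ptgds, taken from a list of names with no threshold on a measured value, and all 10 were present among the 18174 genes of the count table. Pregnant Harlan Sprague Dawley dams were gavaged with corn oil vehicle or with DCHP in corn oil on gestational days 14 to 18, and testes were removed on day 18. The daily dose was 100 or 300 mg/kg in the lower groups and 600 or 900 mg/kg in the upper ones. The testes of a litter were pooled into 1 library, giving 3 litters per group and 2 at 900 mg/kg/day, and replicate numbers only name litters. RNA was read with TempO-Seq, in which detector probe pairs are ligated on the transcript and sequenced. Levels of different genes thus also carry the efficiency of their probes and are not compared here. Sums over a list of genes are read only between libraries.

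Sertoli cells differentiate first among the somatic cells of the fetal testis. SOX9 switches on the supporting cell programme, SOX8 backs it up, and anti-Müllerian hormone, the product of Amh, then makes the Müllerian ducts regress. Sertoli cells enclose the germ cells in cords and signal to the interstitium, where fetal Leydig cells make testosterone, the process for which phthalate esters are best known as toxicants of the male rat fetus. Because RNA came from whole testes, fewer cells of a type and less RNA per cell cannot be told apart.

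The upstream sequence of the 2 members that varied most between litters is shown, since results below turn on their unequal levels. Sequences are those of RefSeq on the GRCr8 assembly, the 250 bases before the annotated start, and 6 of the 10 members had an entry. Capitals mark matches, on either strand, to the monomer site of steroidogenic factor 1 (AGGTCA) and to the core bound by WT1 and EGR proteins (GTGGGCG); a SOX core (AACAAT) and a GATA core (GATAA) were searched too and had no match in these windows. The Amh window lies on chr7:9559868-9560117, minus strand, and the Dmrt1 window on chr1:232568929-232569178, plus strand.
Amh: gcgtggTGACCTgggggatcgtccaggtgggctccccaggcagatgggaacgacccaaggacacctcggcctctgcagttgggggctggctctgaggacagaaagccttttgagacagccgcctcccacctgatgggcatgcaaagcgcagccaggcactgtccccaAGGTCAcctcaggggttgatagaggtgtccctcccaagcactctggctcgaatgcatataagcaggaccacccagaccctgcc
Dmrt1: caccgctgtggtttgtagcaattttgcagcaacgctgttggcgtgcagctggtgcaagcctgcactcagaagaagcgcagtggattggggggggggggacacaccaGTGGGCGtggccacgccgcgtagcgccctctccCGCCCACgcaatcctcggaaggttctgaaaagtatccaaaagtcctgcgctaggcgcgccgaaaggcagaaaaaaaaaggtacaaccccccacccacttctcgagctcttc
In the Amh window the monomer site occurred on the plus strand of the gene 83 to 78 bases before the start and on the minus strand 244 to 239 bases before it. In the Dmrt1 window the WT1 and EGR core occurred 144 to 138 bases before the start on the plus strand and 111 to 105 bases before it on the minus strand. Of 33469 RefSeq windows of the same length, 14.1% held AGGTCA, 6.27% GTGGGCG, 10.3% AACAAT and 23.5% GATAA, so a match describes the letters and not a bound site.

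The libraries held between 5558873 and 11272861 counts. Of the 12719 genes that passed the filter on low counts, 9 were members, and Fshr was left out by the filter. The members summed to 1302, 1557 and 1441 CPM (counts relative to the TMM-scaled library total) in the vehicle litters, while 8 fetal Leydig cell markers summed to 7650, 13174 and 9707 CPM. Of 9 genes linked with ovarian supporting cells, 5 had too few counts to be tested, among them Foxl2 with 0 to 5 counts per library, while Rspo1 had 67 to 216 and Bmp2 11 to 40. The libraries did not order by dose on the first principal component, which held 33.2% of the variance: vehicle replicate 1 (-43.8), 100 mg/kg/day replicate 1 (-67.7) and both 900 mg/kg/day libraries (-40.2 and -23.5) lay at its negative end, and the other 10 between -2.02 and 39.2. Between those 4 libraries and the other 10, 23.5% of tested genes did not overlap, and results that change without libraries of that end are given both ways.

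The question put to these genes was whether Sertoli cell identity shifts across a dose range in which Leydig cell genes fall. No member was called at any dose in edgeR's quasi-likelihood test, at a p-value under 0.05 after adjustment over all tested genes. A missing call does not show an unchanged level, and the intervals are given below. Summed over the members, the level was 1156 to 1439 CPM at 100 mg/kg/day, 1453 to 1459 at 300, 1448 to 1461 at 600 and 1286 to 1493 at 900. The 3 vehicle litters thus spanned the range of the 300 and 600 mg/kg/day litters. Aard, Wt1 and Sox9 made up most of this sum, with means of 570, 318 and 307 CPM of 1433 CPM in vehicle. The sum therefore says little of the other members. The Leydig cell markers summed to 2422 and 3382 CPM at 900 mg/kg/day, below every vehicle litter. Hsd3b3 and Insl3 made up most of this sum in vehicle, with means of 4831 and 3862 CPM of 10177 CPM. It therefore says little of the other markers. Of the 8 markers 4 were called lower at 900 mg/kg/day, Star, Cyp11a1, Cyp17a1 and Hsd3b3 (0.252% of tested genes called). Over dose 6 were called lower, these 4 with Hsd3b1 and Insl3 (0.425%). At 900 mg/kg/day Star, the mitochondrial cholesterol transporter, changed by a log2 fold change of -2.58 ± 0.30 (standard error, edgeR adjusted p = 0.00275). Cyp17a1, the enzyme that commits steroids to androgens, changed by -3.74 ± 0.51 (edgeR adjusted p = 0.00716). Both calls were lost when either 900 mg/kg/day litter was left out and 1 remained, with values of -2.61 and -2.54 for Star (edgeR adjusted p = 0.0687 and 0.0975) and -4.08 and -3.45 for Cyp17a1 (edgeR adjusted p = 0.0947 and 0.242). Over dose both genes were called in 14 of 14 fits without 1 library, as was Star at 600 mg/kg/day. Whether the 2 gene lists differ in their response was not tested as a comparison of lists.

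**Figure D1:**
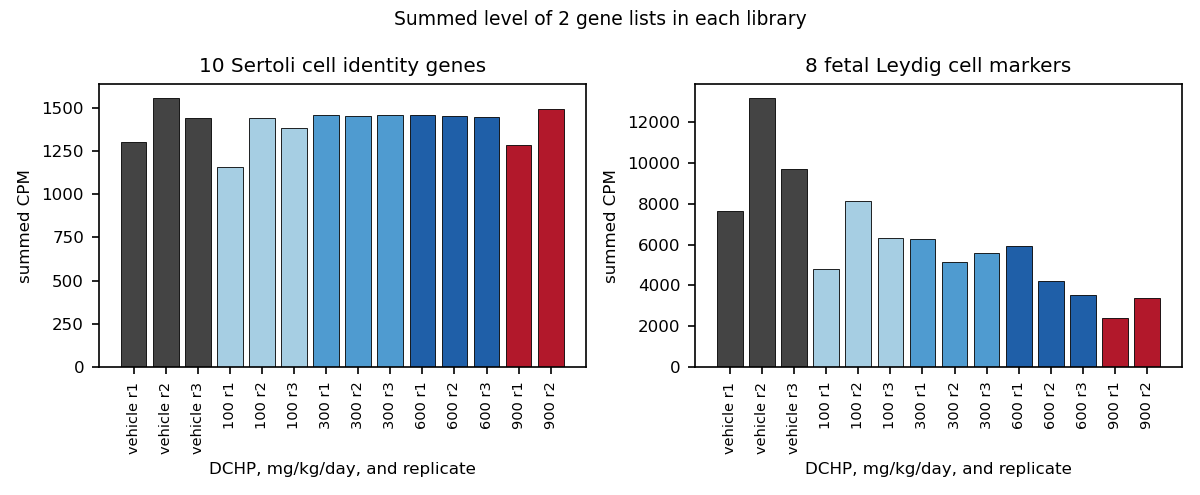
Bars give, for each library, the summed CPM of the 10 Sertoli cell identity genes (left) and of 8 fetal Leydig cell markers (right), coloured by dose group, on axes that start at 0. The Sertoli sums lie between 1156 and 1557 CPM in all 14 libraries, and Aard, Wt1 and Sox9 make up most of them. The Leydig sums reach down to 2422 CPM at 900 mg/kg/day from 7650 CPM or more in vehicle, where Hsd3b3 and Insl3 make up most of their mean.

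At 100 mg/kg/day 0 of 9 members passed and 0% of all tested genes did. At an unadjusted p under 0.05 there was 1 member, Clu, against 3.4% of tested genes, and no member had litters that all lay beyond the vehicle litters (5.98% of tested genes). At 300 mg/kg/day 0 members passed (0.0472% of tested genes), 0 reached an unadjusted p under 0.05 (3.65%), and 2, Ptgds and Sox8, lay above every vehicle litter (9.34% of tested genes lay beyond in either direction). At 600 mg/kg/day 0 members passed (0.22%), 0 reached an unadjusted p under 0.05 (4.79%), and 1, Sox8, did not overlap with vehicle (11%). At 900 mg/kg/day 0 members passed (0.252%), Sox9 alone reached an unadjusted p under 0.05 (4.99%), and 3 did not overlap, Sox9 and Ptgds lying higher and Cldn11 lower (19.2%). These shares in members rest on 9 genes and stand for no set test.

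Comparisons that use all litters gave the same count. Neither the test for any difference among the 5 groups nor the slope over dose called a member, against 0.157% and 0.425% of tested genes. At an unadjusted p under 0.05 there were 0 members in the first (3.53%) and 1, Sox9, in the second (5.09%). Between 900 and 600 mg/kg/day 0 members passed (0% of tested genes) and 0 reached an unadjusted p under 0.05 (8.32%). The median log2 fold change of the 9 members was -0.075, 0.017, 0.083 and 0.13 from the lowest to the highest dose, beside 0.010, -0.016, -0.022 and 0.024 over all tested genes. The member median at the highest dose was -0.069 without replicate 2 of that dose, 0.0062 without replicate 1 of it, -0.023 without vehicle replicate 3 and 0.079 without vehicle replicate 1. DESeq2 and limma on log2 CPM also called 0 members in each of these comparisons. All 4 dose comparisons share the same 3 vehicle litters.

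For 6 of the 9 tested members the 95% intervals at all 4 doses stayed within a 2-fold change in either direction. They were Sox9, Sox8, Wt1, Clu, Aard and Cldn11. The intervals of Amh (0.473-fold to 1.56-fold), Ptgds (0.595-fold to 2.58-fold) and Dmrt1 (0.193-fold to 4.99-fold) reached further, so that a change of more than 2-fold was not excluded for them.

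**Figure D2:**
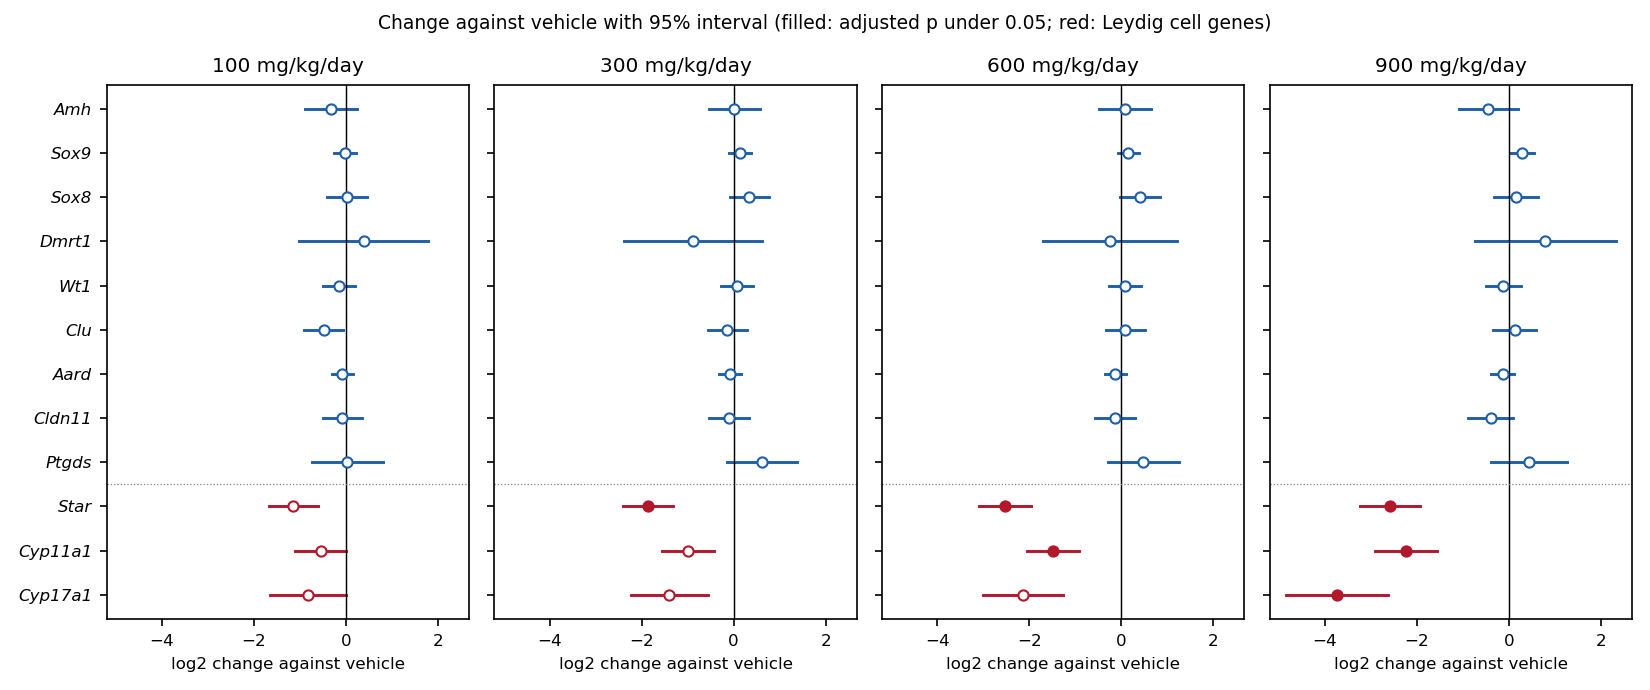
Log2 fold change against vehicle (horizontal axis) with its 95% interval for 9 Sertoli cell identity genes (blue) and 3 Leydig cell genes (red), 1 panel per dose; filled points have an edgeR adjusted p under 0.05. All blue points are open, the widest blue intervals belong to Dmrt1, and Star is filled from 300 mg/kg/day upward. The Star call at 300 mg/kg/day was lost in 7 of 14 fits without 1 library.

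The transcription factor Sox9 (chromosome 10, 97806485 to 97811995, plus strand, rn7 as in the files) is the gene that fixes the Sertoli cell fate. Its level was 304, 331 and 286 CPM in the vehicle litters. It was 295, 289 and 322 CPM at 100 mg/kg/day, 313, 342 and 362 at 300, 317, 356 and 354 at 600, and 332 and 419 at 900. The 900 mg/kg/day litters lay above all vehicle litters, the lower of them by less than 1 CPM. The log2 fold change at 900 mg/kg/day was 0.29 ± 0.12 (95% interval 0.028 to 0.55, edgeR adjusted p = 0.852). Its slope was 0.033 ± 0.011 per 100 mg/kg/day (edgeR adjusted p = 0.452). The interval rests on 2 litters at 900 mg/kg/day, 1 of them (419 CPM) the highest of all 14 libraries. With RLE size factors or DESeq2 no member reached an unadjusted p under 0.05 at 900 mg/kg/day. With library totals only, no filter, limma or the attenuation-adjusted counts 1 member did. Sox9 was among the steadiest members, with an SD of 0.12 in log2 CPM between litters of a group.

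Sox8 (chromosome 10, 14584829 to 14589819, minus strand), the close relative of Sox9 that supports its action, was at 23.9, 25.7 and 30.5 CPM in vehicle. Its levels were 19.2, 27.2 and 34.8 CPM at 100 mg/kg/day, 37.5, 30.9 and 33.2 at 300, 33.4, 38.4 and 35.1 at 600, and 25.4 and 33.7 at 900. All litters at 300 and 600 mg/kg/day stood above the vehicle litters, while those at 900 overlapped with them. Relative to vehicle the log2 fold change was 0.34 ± 0.20 at 300, 0.42 ± 0.20 at 600 (95% interval -0.016 to 0.85, edgeR adjusted p = 0.951) and 0.15 ± 0.22 at 900 mg/kg/day.

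Wt1 (chromosome 3, 91567001 to 91613644, plus strand) encodes a zinc finger factor that Sertoli cells need to keep their identity and that is also made by the surface epithelium of the gonad. It was at 259, 357 and 338 CPM in vehicle and at 211, 334 and 310 CPM at 100 mg/kg/day. At 300 mg/kg/day the litters were at 338, 336 and 334 CPM, at 600 at 311, 355 and 339, and at 900 at 273 and 312. The lowest levels were those of 100 mg/kg/day replicate 1, vehicle replicate 1 and 900 mg/kg/day replicate 1. At 900 mg/kg/day the log2 fold change was -0.12 ± 0.18 (95% interval -0.50 to 0.27, edgeR adjusted p = 0.868).

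Dmrt1 (chromosome 1, 223142859 to 223241334, plus strand) encodes a factor that keeps Sertoli cells from turning into ovarian supporting cells and that germ cells make as well. It was at 9.83, 2.29 and 2.51 CPM in vehicle and at 13.8, 2.79 and 2.75 CPM at 100 mg/kg/day. The levels were 2.90, 3.07 and 1.95 CPM at 300 mg/kg/day, 4.13, 4.04 and 4.25 at 600, and 12.3 and 4.89 at 900. These values came from 13 to 106 counts per library. The 4 libraries at the negative end of the first component held the 4 highest levels, 4.89 to 13.8 CPM, against 1.95 to 4.25 CPM in the other 10. They belong to the vehicle, 100 and 900 mg/kg/day groups. These libraries were singled out with the Dmrt1 levels known, so the split of Dmrt1 is description and no separate finding. Its log2 fold change at 900 mg/kg/day was 0.79 ± 0.71 (95% interval -0.73 to 2.32, edgeR adjusted p = 0.852). When replicate 1 of vehicle and of 100 mg/kg/day were left out, it was 1.78 ± 0.38 (edgeR adjusted p = 0.00715) and the slope was 0.19 ± 0.035 per 100 mg/kg/day (edgeR adjusted p = 0.00441). In that fit 16.7% of tested genes passed at 900 mg/kg/day and 11.8% over dose, and the libraries left at the negative end were both of that dose, so that dose and this axis cannot be told apart there.

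Amh (chromosome 7, 8906836 to 8909283, minus strand), made in the fetal testis by Sertoli cells, was at 95.9, 220 and 148 CPM in vehicle. The highest level of all 14 libraries was in a vehicle litter, and 1 library, at 100 mg/kg/day, lay below the lowest vehicle litter. It was at 86.0, 147 and 137 CPM at 100 mg/kg/day, 183, 126 and 161 at 300, 163, 156 and 173 at 600, and 117 and 111 at 900. The 4 lowest levels, 86.0 to 117 CPM, were those of the same 4 libraries in which Dmrt1 was highest, and the other 10 lay between 126 and 220 CPM. Amh and Dmrt1 were 2 of 9 tested members that separated these libraries, near the share of all tested genes (23.5%). The log2 fold change was 0.082 ± 0.26 at 600 and -0.44 ± 0.29 at 900 mg/kg/day (95% interval -1.08 to 0.19, edgeR adjusted p = 0.852), and -0.53 ± 0.295 between 900 and 600 mg/kg/day (adjusted p = 0.508). With the same pair of libraries left out the value at 900 mg/kg/day was -0.73 ± 0.18 (edgeR adjusted p = 0.0173) and that against 600 mg/kg/day -0.56 ± 0.17 (edgeR adjusted p = 0.0413), where 14% of tested genes passed. With only the 600 and 900 mg/kg/day litters in the fit Amh was at -0.57 ± 0.10 (edgeR adjusted p = 0.0025), where 18% of tested genes passed.

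**Figure D3:**
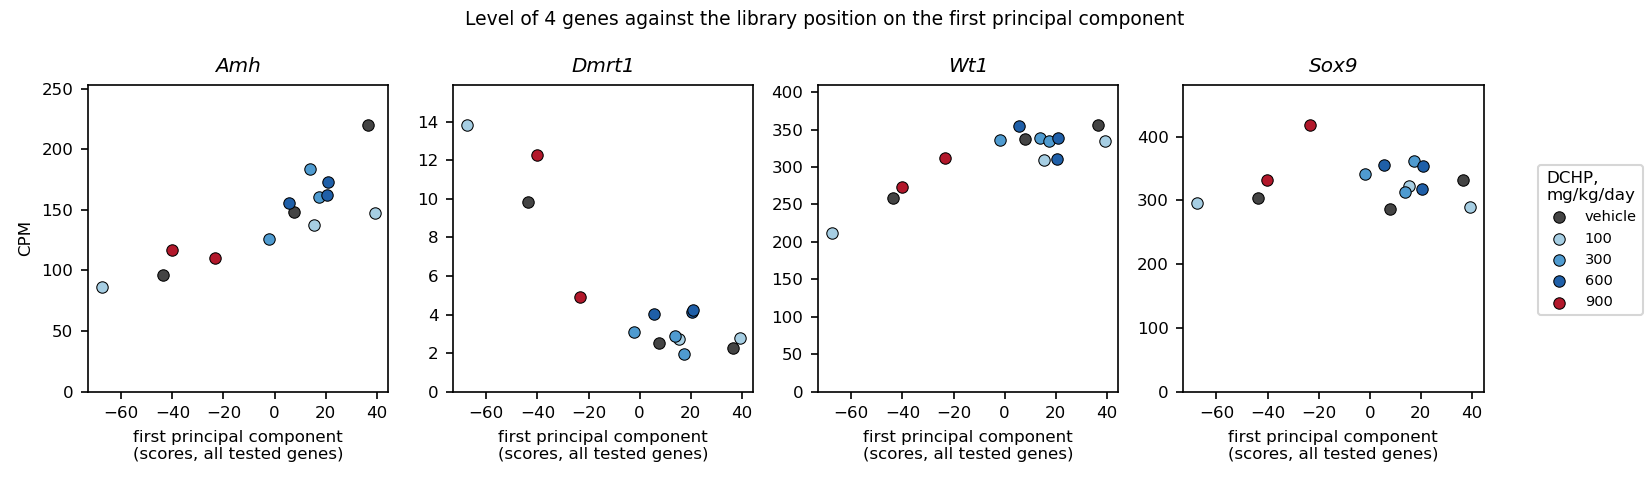
CPM of Amh, Dmrt1, Wt1 and Sox9 (vertical axes, from 0) against the score of each of the 14 libraries on the first principal component of all tested genes, coloured by dose group. Amh is lowest and Dmrt1 highest in the 4 libraries at the negative end, which include vehicle replicate 1. Their Wt1 and Sox9 levels overlap with those of the other 10, and 23.5% of all tested genes separate these libraries. The 4 libraries were singled out with the Dmrt1 levels known.

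Some list sums also separated the same 4 libraries from the other 10, as 23.5% of single tested genes did. The 7 interstitial progenitor markers summed to 930 to 1054 CPM in them and 695 to 827 CPM in the other 10, and the 9 genes of Sertoli cell junctions to 655 to 776 and 555 to 593 CPM. The 11 gonocyte markers overlapped (1247 to 1371 and 1112 to 1501 CPM), as did the 8 Leydig cell markers (2422 to 7650 and 3546 to 13174 CPM), and library totals overlapped as well. Sums of the members, of the other Sertoli cell genes and of the Sox9 and Amh network overlapped too. So did those of the ovarian, peritubular, endothelial, macrophage, erythroid, mesonephric and coelomic lists. The part of the interstitial and junction differences in the levels of Amh and Dmrt1 was not tested.

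The receptor Fshr (chromosome 6, 5198825 to 5406786, plus strand) lets Sertoli cells respond to follicle-stimulating hormone. It had 0 to 6 counts in a library. It was at 0.199 CPM in 1 vehicle litter and had 0 counts in the other two, and its highest level was 0.645 CPM in 300 mg/kg/day replicate 1. A count of 0 allows a level of up to 0.299 and 0.343 CPM in those vehicle litters (3 counts, counting error only). Fshr was left out by the filter, so no difference between doses is reported for it at this depth.

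Cldn11 (chromosome 2, 112207745 to 112221051, minus strand) encodes the claudin of the tight junctions between Sertoli cells. Its levels were 18.3, 19.7 and 23.8 CPM in vehicle, 21.2, 22.7 and 14.8 at 100 mg/kg/day, 22.0, 20.3 and 15.2 at 300, 19.1, 21.1 and 15.9 at 600, and 16.5 and 14.9 at 900. Both 900 mg/kg/day litters lay below the vehicle litters, and 1 litter each at 100, 300 and 600 mg/kg/day lay below them as well. The log2 fold change at 900 mg/kg/day was -0.39 ± 0.23 (95% interval -0.88 to 0.10, edgeR adjusted p = 0.852).

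Aard (chromosome 7, 83364204 to 83369318, plus strand), a gene with an alanine and arginine rich domain that is enriched in Sertoli cells, was the steadiest member. Its levels were 559, 563 and 588 CPM in vehicle, 486, 590 and 540 at 100 mg/kg/day, 533, 563 and 525 at 300, 585, 493 and 484 at 600, and 474 and 563 at 900. The groups overlapped, and the highest library stood 1.24-fold above the lowest. The log2 fold change at 900 mg/kg/day was -0.14 ± 0.12 (95% interval -0.39 to 0.12, edgeR adjusted p = 0.852).

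Clu (chromosome 15, 40174617 to 40200316, plus strand) encodes clusterin, a chaperone that Sertoli cells secrete in quantity and that many other tissues make. It was at 30.9, 37.3 and 24 CPM in vehicle, 22.1, 24.9 and 19.1 at 100 mg/kg/day, 27.2, 31.3 and 25.4 at 300, 26.5, 31.1 and 41.1 at 600, and 34.2 and 32.9 at 900. The 100 mg/kg/day litters were low, with 1 of them above the lowest vehicle litter. Relative to vehicle Clu had a log2 fold change of -0.48 ± 0.20 at 100 (95% interval -0.91 to -0.061, edgeR adjusted p = 0.9999) and 0.13 ± 0.22 at 900 mg/kg/day.

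Ptgds (chromosome 3, 8281899 to 8284834, minus strand) encodes a prostaglandin D synthase whose product, in mouse, helps to recruit cells to the Sertoli fate through SOX9. It had 6 to 17 counts in a library. Its levels were 0.894, 1.09 and 1.14 CPM in vehicle, 0.784, 1.27 and 1.12 at 100 mg/kg/day, 1.83, 1.47 and 1.5 at 300, 1.63, 1.09 and 1.66 at 600, and 1.57 and 1.29 at 900. All litters at 300 and 900 mg/kg/day exceeded the vehicle litters. Relative to vehicle Ptgds had a log2 fold change of 0.62 ± 0.35 at 300 (95% interval -0.14 to 1.37, edgeR adjusted p = 0.9995) and 0.44 ± 0.38 at 900 mg/kg/day (adjusted p = 0.852).

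**Figure D4:**
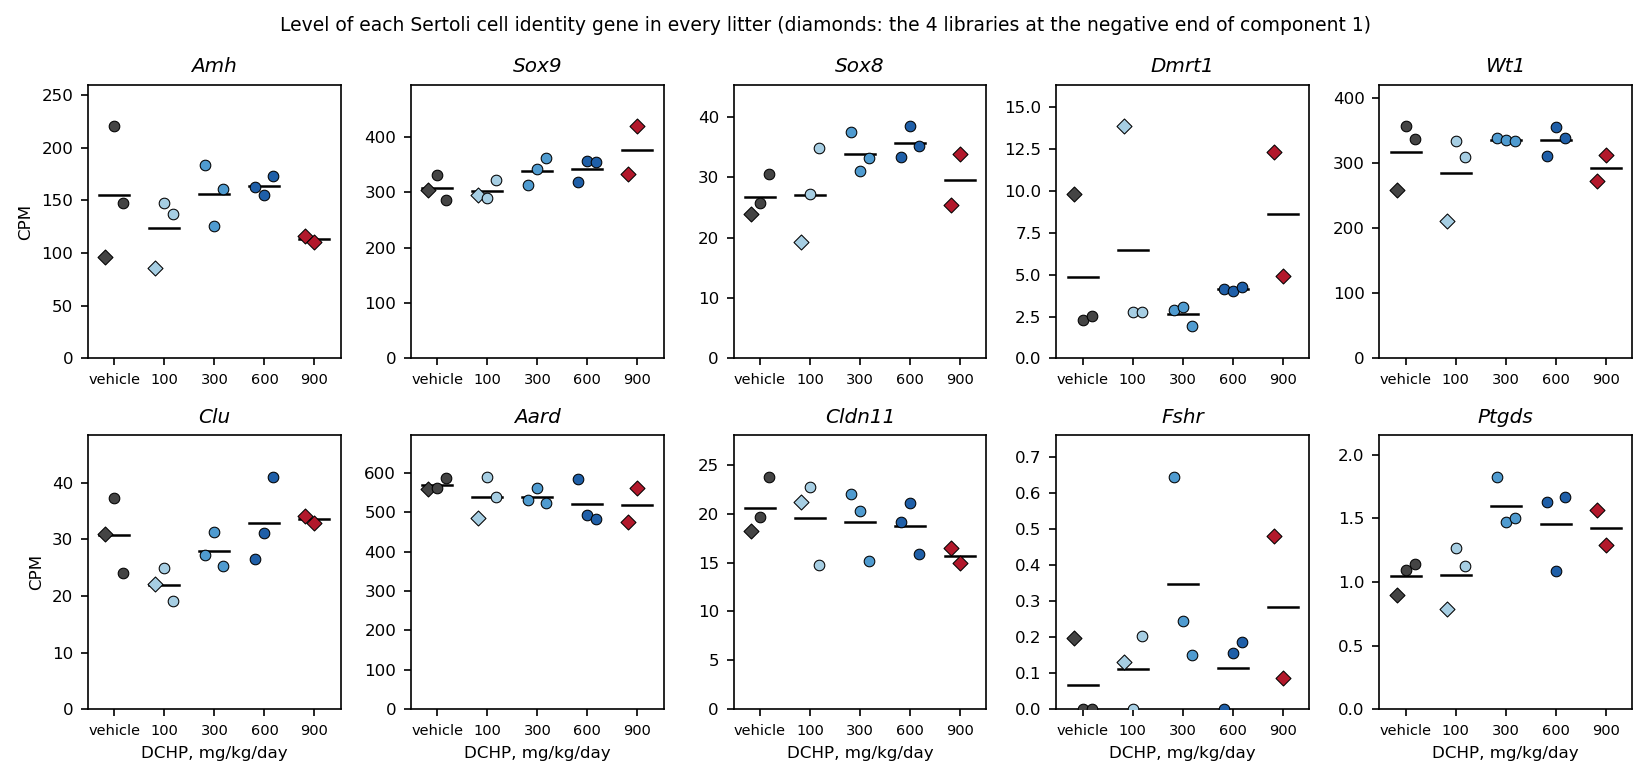
CPM of each of the 10 Sertoli cell identity genes (vertical axes, from 0) in every litter by dose group, with a line at the group mean; diamonds are the 4 libraries at the negative end of the first principal component. Dose groups overlap for most genes, and the diamonds hold the highest Dmrt1 and the lowest Amh levels, a split that 23.5% of all tested genes show. The 4 libraries were singled out with the Dmrt1 levels known.

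The members did not vary as 1 unit across the 14 libraries. As a description, log2 CPM of Amh was most like that of Wt1 (Pearson r 0.84, Spearman rho 0.78; r 0.66 without the 2 libraries farthest from the median of Amh, and 0.46 in the 10 libraries away from the negative end). For Sox8 the most alike member was Wt1 (r 0.76, and -0.19 in those 10 libraries), and for Sox9 it was Clu (r 0.50, and 0.49 in those 10). Sox9 and Cldn11 lay opposite to each other (r -0.67, and -0.62 in those 10), as did Sox9 and Aard in those 10 libraries (r -0.77, against -0.23 in all 14). Dmrt1 lay opposite to Wt1 (r -0.87, -0.76 without the 2 libraries farthest from its median, and -0.12 in those 10) and to Amh (r -0.77, and -0.11 in those 10). The 10 libraries leave out the 4 with the highest Dmrt1 and the lowest Amh levels, singled out with the Dmrt1 levels known. The range of both genes is narrower there, so a smaller r in those 10 cannot test their relations. All values share their libraries, scaling and the first component.

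Among tested genes with a mean count of at least 20, those whose pattern over the 14 libraries was most like Amh were Drosha (r 0.96), the nuclease that cuts primary microRNAs, Sfxn3 (0.95), a mitochondrial amino acid carrier gene, the dynactin gene Dctn1 (0.95), the septin gene Septin2 (0.95) and Gpn2 (0.95), a GTPase gene. For Sox9 they were Bambi (r 0.87), a decoy receptor gene of the TGF-beta family, the actinin gene Actn1 (0.87) and Dsel (0.84). Next came Ambra1 (0.82), an autophagy gene, and the endothelin receptor gene Ednrb (0.82). Each list holds the highest r among 10446 genes over 14 libraries, so a high r partly follows from the choice. Amh also separated the 4 libraries at the negative end of the first component, as 23.5% of tested genes did. Shared regulation was not tested.

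Of 18 other genes linked with Sertoli cells that the table holds, 16 were tested and 1 passed. Of all tested genes 0.22% passed at 600 mg/kg/day, 0.252% at 900, 0.157% among all groups and 0.425% over dose. Inha, the inhibin alpha subunit gene that Sertoli cells and fetal Leydig cells both express, was at 197 ± 27.3 CPM (SD, n = 3) in vehicle, 104 ± 20.6 CPM (n = 3) at 600 and 82.0 ± 2.74 CPM (n = 2) at 900 mg/kg/day. It fell at 900 mg/kg/day (-1.26 ± 0.17, edgeR adjusted p = 0.00716), at 600 (adjusted p = 0.029) and over dose (adjusted p = 0.0077). The call over dose held without any 1 library, while that at 900 was lost without either litter of that dose (edgeR adjusted p = 0.218 and 0.111) and that at 600 in 8 of 14 such fits (highest adjusted p = 0.159). Vnn1, a pantetheinase gene, was at -0.77 ± 0.24 at 900 mg/kg/day (edgeR adjusted p = 0.517), and Hsd17b1, a hydroxysteroid dehydrogenase gene, at -0.69 ± 0.49 (adjusted p = 0.852). Cdh2, the cadherin of Sertoli and germ cell contacts, was at 0.44 ± 0.37 and the gonadal LIM factor gene Lhx9 at -0.22 ± 0.17, without a call.

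The wider network and the junction genes gave no call. At most 0.425% of all tested genes passed in any comparison, so 0 calls in lists this short say little of their genes. Of 18 tested genes upstream or downstream of Sox9 and Amh 0 passed in any comparison, among them Nr0b1, the orphan receptor gene that antagonises steroidogenic factor 1 (-1.41 ± 0.70 at 900 mg/kg/day, edgeR adjusted p = 0.852), and Cbx2, a Polycomb gene needed for testis determination (0.23 ± 0.11). Of 9 tested junction genes 0 passed, with Gja1, the connexin 43 gene, at -0.42 ± 0.22. Of the 9 ovarian supporting cell genes 4 had enough counts to be tested and 0 passed, Rspo1, a Wnt pathway activator gene, being at 0.29 ± 0.28 at 900 mg/kg/day. In the lists of other cell types, 0 genes passed in any comparison among the tested markers of gonocytes (9), peritubular cells (7), interstitial progenitors (7), endothelium (6), macrophages (7), erythroid cells (6), mesonephros (3) and coelomic epithelium (3). The 6 erythroid genes summed to between 4991 and 27732 CPM per library, highest in 600 mg/kg/day replicate 2, and their part in the members' values was not tested.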

How the data were processed

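TempO-Seq counts per gene were measured in 14 litter pools. The authors' deposited table holds estimated counts per gene (83.6% of values were whole, tolerance 1e-09), which were rounded to whole numbers here. STAR 2.7.8a, Partek, DESeq2 and the rn7 build are named in the submitters' processing notes, with no role given. A second deposited table, adjusted for probe attenuation, differed for 16 genes, none a member. Groups came from the dose labels. Genes with low counts were removed with filterByExpr (5455 of 18174, 99.9% of counts kept), libraries were scaled by TMM, and edgeR 4.0.16 (R 4.3.3) fitted all 14 libraries with a quasi-likelihood model (9 residual degrees of freedom), giving tests per dose, among all groups and over dose. P-values were adjusted by Benjamini-Hochberg over 12719 genes with a threshold of 0.05, and ± after a log2 fold change is a standard error. DESeq2 1.42.0 and limma 3.58.1 were alternatives, and the fit was tested on simulated data. Litters are the replicates; floors cover counting error only. Members and lists were chosen with earlier results of these data known. Besides the members, genes named were those of the lists that passed, up to 4 per list with the smallest p over dose, and the 5 most like Amh and Sox9. Foxl2 was named for its low counts.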

Additional observations from a re-analysis of the deposited data

How the results depend on the processing

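Members called stayed at 0 in all 7 comparisons with other scalings, with no filter, with the attenuation-adjusted counts, with DESeq2, with limma and without any 1 library. Over those fits that left out 1 library the median log2 fold change of members at 900 mg/kg/day ranged from -0.07 to 0.13 and the median slope from 0.015 to 0.033. When replicate 1 of vehicle and of 100 mg/kg/day were left out together, 2 of 9 members were called at 900 mg/kg/day (Amh and Dmrt1; 16.7% of tested genes), 1 against 600 mg/kg/day (Amh; 14%), 1 among all groups (Dmrt1; 10.1%) and 1 over dose (Dmrt1; 11.8%), shares near those of all genes, and the median slope was 0.0093. With only the 600 and 900 mg/kg/day litters, 1 member was called (Amh; 18% of tested genes). The cause was not tested. Without all 4 libraries at the negative end of the first component, a setting chosen after seeing the data, 0 members were called at 100, 300 and 600 mg/kg/day, among groups and over dose. That setting drops both 900 mg/kg/day litters, so its results among groups and over dose cover only vehicle to 600 mg/kg/day. Of 1214 refits of single members 68 had another sign than the reported value, all of values without a call. Scaling by library totals alone moved the median of all genes by 0.11 between 900 and 600 mg/kg/day. No paired analysis was possible because the library names hold a running number and none that dose groups share. Depth limits Fshr and Ptgds, and the 2 litters at 900 mg/kg/day limit that dose.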
